A study of Mus musculus with 24 samples.

Results

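The response of mouse embryonic fibroblasts to dexamethasone (Dex), a synthetic glucocorticoid, was compared between cultures without and with bacterial lipopolysaccharide (LPS). The comparison used the 12 wild-type RNA-seq libraries of a series of 24, with 4 groups of 3 libraries. The cells, of genotype GR wt / wt (wild type) and strain C57BL/6, received ethanol vehicle, Dex at 1 uM for 16 h, vehicle for 16 h with LPS for 6 h, or Dex for 16 h with LPS for 6 h. The LPS dose is labelled 100 ng/ul. All cultures came from male embryos of day 13.5, minced without head and inner organs, and were grown for 7 days before treatment, so they hold the mixed connective tissue of a body and not 1 cloned line. The 12 libraries of the other genotype, GR Zn / Zn, whose glucocorticoid receptor carries an alteration in a zinc finger of the DNA-binding domain, were given the same 4 treatments and serve only as a comparison here. Whether the replicates came from different embryos or dishes is not stated, and p-values therefore reflect the spread of these libraries alone, which may be technical.

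The glucocorticoid receptor (GR, the product of Nr3c1) is a hormone-activated transcription factor that raises one set of genes from its own DNA sites and lowers many inflammatory genes. LPS is sensed by the receptor TLR4, which signals through MYD88 to NF-kB and AP-1, and through TRIF to IRF3 and interferon beta, whose receptor activates a complex that holds STAT2 and IRF9. In fibroblasts the NF-kB and AP-1 arm yields chemokines, cytokines and matrix proteases, and the interferon arm yields antiviral genes. A gene shows an interaction where the ratio of Dex to no Dex differs between cultures with and without LPS.

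The interaction was computed per gene as the log2 effect of Dex with LPS minus the log2 effect of Dex without LPS. A negative value means that Dex lowered the gene more, or raised it less, once LPS was present. Levels are counts per 1e06 counted reads, scaled between libraries (CPM), and log2 values are fold changes fitted with a prior count of 2. The standard error (SE) given with them was derived from the test statistic and the fold change without that prior count. At low counts it is therefore only approximate for the printed value. The threshold for a call was 0.05 on the p adjusted by Benjamini-Hochberg in edgeR's quasi-likelihood test over 15221 genes, and every adjusted p below comes from that fit unless another tool is named.

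The wild-type libraries held 18.9 to 25.1 M counted reads, apart from Dex with LPS replicate 3 at 58.0 M, whose library number in the labels lies apart from the run of the others. The Dex with LPS group was less even than the others. Its pairs of replicates differed by a chi-square per degree of freedom of 19.0 to 56.3, against 1.53 to 2.44 in the other wild-type groups. Across genes, the deviation of replicate 1 from its group mean had rank correlations of -0.62 with transcript length and 0.49 with the share of G and C bases, and that of replicate 3 of 0.47 and -0.68. In the 9 libraries of the other wild-type groups the correlations with length lay between -0.09 and 0.12. Dex with LPS replicate 2 had 0.36 with length and 0.25 with G and C bases. Deviations from a group mean cancel within the group, so these values follow from those of replicates 1 and 3. They cannot show whether replicate 2, the library that remains without the other 2, itself deviates. Every interaction rests on this group, so counts are given below also without replicates 1 and 3 (the 2 doubtful libraries), where its 1 remaining library is assumed to vary like the other groups. The summed level of the 17 tested of 18 adult liver markers, none of them called, also followed single libraries. It was 88.8 to 193.9 CPM with vehicle, 29.8 to 34.6 with Dex, 1.09 to 37.8 with LPS and 1.82 to 241.7 with Dex and LPS, and its part in any result was not tested. The defining fibroblast genes of the labelled cell type were high in every library: the summed level of 24 collagen and fibroblast genes was 47483 to 50445, 50262 to 52721, 49450.4 to 49667 and 47214 to 53259 CPM in the 4 groups, and none of them was called. Nr3c1 itself was at 92.6, 89.9 and 86.8 CPM with vehicle, 60.8, 56.5 and 58.2 with Dex, 92.9, 96.1 and 91.5 with LPS, and 50.5, 66.8 and 72.7 with Dex and LPS, with an interaction of 0.06 ± 0.18 (adjusted p = 0.946).

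Of 15221 genes, 238 were called (1.56%), 190 lower (1.25%) and 48 higher (0.315%). The lower genes were led by interferon-stimulated antiviral genes such as Ifit1, Oasl1, Rtp4 and Isg15, which LPS raised and Dex lowered in the presence of LPS, with no Dex effect that passed without it. At least 2-fold interactions were found for 73 of the lower and 11 of the higher genes. With replicates 1 and 3 of Dex with LPS left out, 163 genes were called, 130 lower and 33 higher, and 146 of these were among the 238. Without replicate 1 alone 246 were called, and without replicate 3 alone 316. Leaving out Dex replicate 2 gave the fewest calls, 156. All 238 kept their sign without both libraries. DESeq2 called 305 genes and limma voom with sample weights 889. The median over all genes tested was 0.00.

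**Figure D1:**
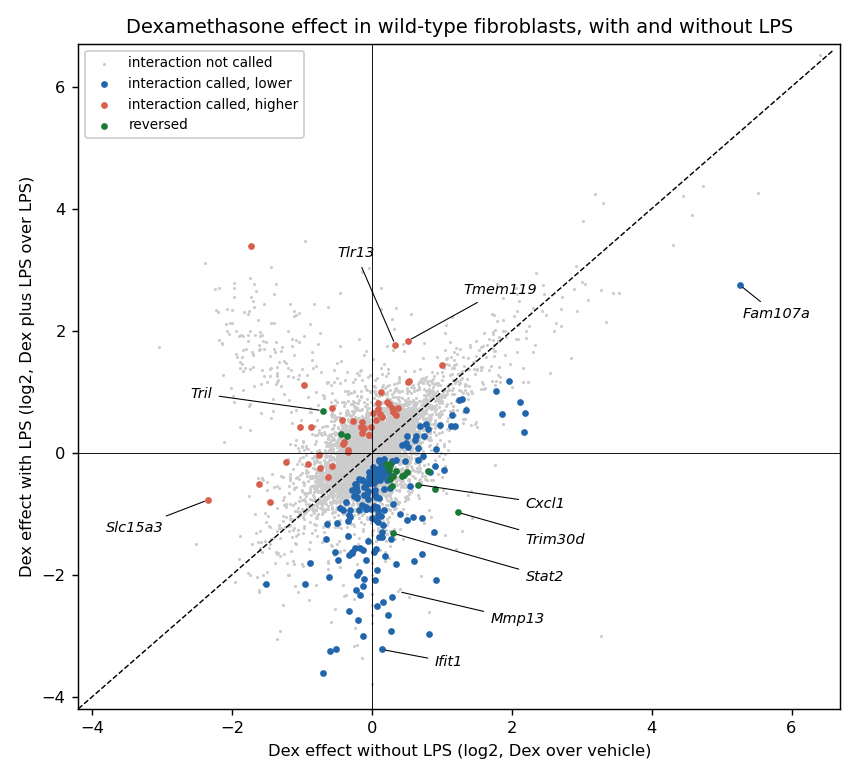
Each point is 1 of the 15221 genes tested, with the log2 effect of Dex without LPS on the x axis and with LPS on the y axis, wild type, 3 libraries a group; the dashed line marks equal effects. Called genes below the line number 190 and above it 48, and the 20 genes in green changed sign; the grey points at upper left include the liver markers, none of them called.

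The Dex effects sort the 238 genes into kinds. Dex without LPS changed 13.2% of all genes (7.92% higher, 5.24% lower) and Dex with LPS 21% (10.5% higher, 10.6% lower). The most frequent kind, 113 genes, was lowered by Dex with LPS and did not pass the test without it. A further 24 genes were lowered in both settings and more with LPS, and 17 were raised without LPS and lowered with it. Among genes that Dex raised, 22 were raised in both settings and less with LPS, and 14 passed only without LPS. In the other direction, 21 genes were raised only with LPS, 10 were lowered only without it, 9 were raised in both and more with LPS, 5 were lowered in both and less with LPS, and 3 were lowered without LPS and raised with it. A call in one setting and not in the other is used here only to sort genes whose interaction was itself called.

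Ifit1, an interferon-induced protein that binds foreign RNA (ENSMUSG00000034459, chr19:34640871-34650009 on mm10), had the lowest interaction of all called genes with at least 10 reads in every wild-type group and 1 CPM in one of them. Its level was 0.807, 0.83 and 1.28 CPM with vehicle, 1.37, 0.909 and 0.974 with Dex, 190.0, 169 and 193 with LPS, and 18.9, 18.2 and 21.2 with Dex and LPS. The LPS libraries stood far above all others, the Dex with LPS libraries stood between them and the unstimulated ones, and vehicle and Dex overlapped. Dex lowered Ifit1 9.47-fold with LPS and left a ratio of 1.11 without it. The Dex effect was 0.14 ± 0.46 (SE, adjusted p = 0.911) without LPS and -3.23 ± 0.17 (adjusted p = 7.43e-12) with it. The interaction was -3.37 ± 0.51 (adjusted p = 0.000511).

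Cxcl1, a chemokine that draws neutrophils (ENSMUSG00000029380, chr5:90891241-90893115), reversed. The Dex effect was 0.66 ± 0.17 (adjusted p = 0.00665) without LPS and -0.52 ± 0.07 (adjusted p = 8.93e-06) with it, an interaction of -1.18 ± 0.18 (adjusted p = 0.00048). These rest on 1.71, 1.31 and 1.7 CPM with vehicle, 3.01, 1.9 and 2.67 with Dex, 298, 303 and 321 with LPS, and 234, 197 and 209.6 with Dex and LPS. Neither the 3 Dex and 3 vehicle libraries nor the 3 Dex with LPS and 3 LPS libraries overlapped. LPS raised Cxcl1 195-fold without Dex and 84.6-fold with it, and without LPS no library exceeded 3.01 CPM.

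Mmp13, a collagenase that cuts fibrillar collagen (ENSMUSG00000050578, chr9:7272514-7283331), was not called. It was at 3.66, 1.48 and 1.03 CPM with vehicle, 0.764, 0.372 and 7.48 with Dex, 45.8, 26.3 and 22.1 with LPS, and 6.45, 6 and 6.73 with Dex and LPS. The LPS libraries all lay above the Dex with LPS libraries, while Dex replicate 3 was higher than every other library without LPS. The interaction of -2.65 ± 0.88 did not pass (adjusted p = 0.201), although Dex lowered the gene with LPS (effect -2.28 ± 0.47, adjusted p = 0.00131). Without Dex replicate 3 the interaction was -0.59 (adjusted p = 0.933), and Mmp13 passed in none of the 25 other settings tried. In the authors' deposited table the Dex effects on these markers without and with LPS were 0.17 and -3.24 for Ifit1, 0.68 and -0.53 for Cxcl1, and 0.47 and -2.30 for Mmp13.

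**Figure D2:**
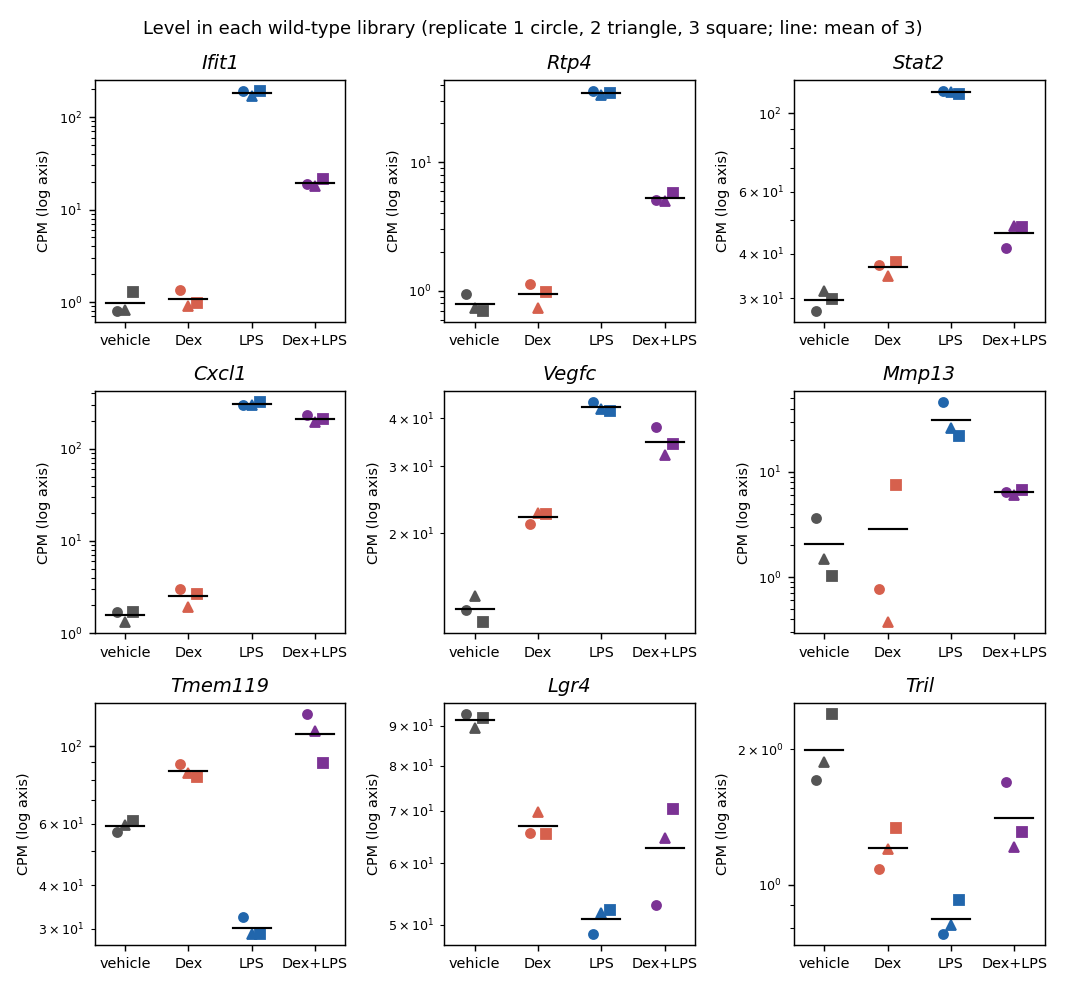
CPM on a log axis in each of the 12 wild-type libraries for 9 genes, 3 libraries a group; circles, triangles and squares are replicates 1, 2 and 3 and lines are means. The Dex with LPS libraries lie below the LPS libraries for Ifit1, Rtp4, Stat2, Cxcl1, Vegfc and Mmp13 and above them for Tmem119, Lgr4 and Tril, while Dex replicate 3 stands apart for Mmp13.

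Promoters of the 3 markers and of Isg15, Stat2 and Trim30d are shown because the results turn on these genes, which all had negative interactions: strongly lowered, reversed, or, for Mmp13, not called. Each is the 250 bases before the RefSeq transcription start on GRCm38.p6, read 5′ to 3′ on the gene's strand. Capitals mark matches, on either strand, to the interferon-stimulated response element, to an NF-kB motif and to the AP-1 motif TGANTCA. The regions are chr19:34640639-34640888 on the plus strand for Ifit1, chr4:156200819-156201068 on the minus strand for Isg15 and chr10:128270248-128270497 on the plus strand for Stat2. Those of Trim30d, Cxcl1 and Mmp13 are chr7:104507850-104508099 on the minus strand, chr5:90890995-90891244 on the plus strand and chr9:7272264-7272513 on the plus strand.
Ifit1: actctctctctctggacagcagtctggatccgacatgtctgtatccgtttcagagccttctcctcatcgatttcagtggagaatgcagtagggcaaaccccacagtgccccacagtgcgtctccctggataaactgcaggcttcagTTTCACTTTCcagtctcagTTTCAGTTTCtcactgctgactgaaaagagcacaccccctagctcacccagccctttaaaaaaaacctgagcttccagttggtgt
Isg15: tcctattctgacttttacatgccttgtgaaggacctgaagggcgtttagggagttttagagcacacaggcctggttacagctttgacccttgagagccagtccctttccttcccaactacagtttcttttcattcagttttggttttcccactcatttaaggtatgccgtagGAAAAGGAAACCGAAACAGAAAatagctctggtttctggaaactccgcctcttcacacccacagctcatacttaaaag
Stat2: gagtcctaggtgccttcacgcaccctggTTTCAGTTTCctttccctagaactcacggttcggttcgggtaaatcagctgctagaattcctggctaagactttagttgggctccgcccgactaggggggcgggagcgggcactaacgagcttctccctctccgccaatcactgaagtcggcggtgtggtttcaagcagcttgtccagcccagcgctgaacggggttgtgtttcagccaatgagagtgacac
Trim30d: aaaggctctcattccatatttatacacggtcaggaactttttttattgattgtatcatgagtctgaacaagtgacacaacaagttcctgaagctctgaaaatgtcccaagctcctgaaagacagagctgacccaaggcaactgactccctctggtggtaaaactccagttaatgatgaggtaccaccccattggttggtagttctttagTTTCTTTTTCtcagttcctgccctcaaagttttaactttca
Cxcl1: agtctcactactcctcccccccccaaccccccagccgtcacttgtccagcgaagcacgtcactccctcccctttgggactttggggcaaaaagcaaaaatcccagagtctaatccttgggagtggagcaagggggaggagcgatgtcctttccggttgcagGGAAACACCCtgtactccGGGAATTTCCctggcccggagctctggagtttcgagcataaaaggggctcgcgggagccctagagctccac
Mmp13: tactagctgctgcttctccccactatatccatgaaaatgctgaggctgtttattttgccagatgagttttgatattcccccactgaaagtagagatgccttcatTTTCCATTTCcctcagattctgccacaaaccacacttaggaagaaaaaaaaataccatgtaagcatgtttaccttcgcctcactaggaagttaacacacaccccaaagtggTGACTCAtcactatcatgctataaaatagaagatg
Ifit1 held 2 matches to the response element, starting 104 and 85 bases before the start, and Isg15 held 3 that overlap each other, from 78 bases before the start. Stat2 and Trim30d held 1 each, at 222 and 41 bases. Cxcl1 held 2 matches to the NF-kB motif, at 89 and 71 bases. Mmp13 held 1 match to the response element at 146 bases and 1 to the AP-1 motif at 35 bases. In windows from 250 bases before to 50 after the start, the response element was found for 33 of the 149 lower genes with a promoter in the table (22.1%), for 0 of 36 higher genes and for 3.73% of 11031 tested genes. It occurred in 3.44% of all 32851 promoters. The AP-1 motif was found for 13.4% of lower and 8.33% of higher genes, against 6.53% of tested genes and 7.81% of all promoters, and the NF-kB motif for 4.03% and 2.78%, against 2.04% and 1.63%. A palindromic GR motif was in none of the called genes' windows and in 0.0487% of all promoters. A match is a run of letters and was not tested as a site.

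Interferon-stimulated antiviral genes made up the largest share of calls among the lists. Of 38 tested members, 24 were lower and none higher, with a median interaction of -1.82. Over all genes tested 1.25% were lower and 0.315% higher, and every count of list members below is to be read beside these shares. These lists were chosen with earlier results of the same data known, so the counts describe and do not test a group. Without Dex with LPS replicates 1 and 3, 17 of the 38 were called, and the median was -1.86. The 10 lowest interactions among genes with enough reads ran from -3.37 to -2.57, and 8 of these 10 genes were on that list.

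Rtp4, a receptor transporter protein induced by interferon, was at 0.95, 0.742 and 0.703 CPM with vehicle, 1.13, 0.743 and 0.974 with Dex, 35.8, 33 and 34.2 with LPS, and 5.11, 4.97 and 5.79 with Dex and LPS. The Dex and vehicle libraries overlapped, and the Dex with LPS libraries lay 6.49-fold below the LPS ones on average. The interaction was -2.90 ± 0.41 (adjusted p = 0.000238). Isg15, a ubiquitin-like modifier, was at 1.57, 1.4 and 1.7 CPM with vehicle, 1.89, 1.57 and 1.38 with Dex, 65.7, 62.4 and 59.7 with LPS, and 13.5, 10.3 and 9.48 with Dex and LPS, with an interaction of -2.57 ± 0.40 (adjusted p = 0.000608). For Isg15 too the groups without LPS overlapped and those with LPS did not. Interactions of other members were -3.20 for Oasl1, an oligoadenylate synthetase-like protein, -2.88 for Ifi44 and -2.61 for Cmpk2, a mitochondrial nucleotide kinase. Cmpk2 lost its call without both doubtful libraries (adjusted p = 0.103), as did Ifit3b (adjusted p = 0.0532). Ifit3 and Ifit3b, at -2.65 and -2.91, are near-identical copies, so the share of reads each received is uncertain. The RNA sensors Ddx58 (RIG-I) and Ifih1 (MDA5, named after its values were seen) had interactions of -0.97 ± 0.13 and -1.47 ± 0.25, and Parp14, an ADP-ribosyltransferase, -2.14 ± 0.32. Rsad2, the antiviral enzyme viperin, and Mx1, a dynamin-like GTPase, did not pass, at -2.89 ± 1.15 and -2.49 ± 1.62. Rsad2 did not exceed 0.308 CPM and Mx1 0.103 CPM in any library without LPS, so at this depth a fall with Dex there was not detectable.

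Guanylate-binding proteins and immunity-related GTPases, which attack the membranes around intracellular microbes, had 5 of 15 tested members lower, with a median of -1.71, and 5 were also called without both doubtful libraries. Igtp was at 0.902, 0.917 and 1.12 CPM with vehicle, 1.33, 1.12 and 1.18 with Dex, 38.9, 35.2 and 40.0 with LPS, and 8.85, 5.33 and 7.65 with Dex and LPS. Dex lowered it 5.22-fold with LPS, and the libraries of the groups with LPS did not overlap. Its interaction was -2.64 ± 0.35 (adjusted p = 0.000122), that of Irgm2 -2.16 ± 0.29, of Gbp3 -1.69 ± 0.35 and of Gbp2 -1.15 ± 0.21. Irgm1 was lowered by Dex in both settings, with effects of -0.89 without and -1.81 with LPS.

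Transcription factors of the interferon pathway were among the lower genes. Of 17 tested IRF and STAT factors, 7 were lower, among them Irf7, Stat2, Irf9, Stat5a, Irf1 and Irf2. Without both doubtful libraries 5 were called. Stat2, which acts with IRF9 at the response element, was at 27.6, 31.4 and 29.7 CPM with vehicle, 37.1, 34.7 and 38 with Dex, 116, 115 and 114 with LPS, and 41.6, 48 and 47.8 with Dex and LPS. Every Dex library exceeded every vehicle library, and every Dex with LPS library lay below every LPS library. The Dex effect on Stat2 was 0.30 ± 0.09 without LPS and -1.32 ± 0.09 with LPS, an interaction of -1.63 ± 0.12 (adjusted p = 5.24e-08). Irf9 had a Dex effect of 0.06 ± 0.10 without LPS that did not pass, and an interaction of -1.16 ± 0.14 (adjusted p = 2.26e-05). Irf7, which amplifies interferon production, had an interaction of -1.99 ± 0.40. Irf3, which is activated by phosphorylation, was not called at 0.25 ± 0.16 (adjusted p = 0.651).

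**Figure D3:**
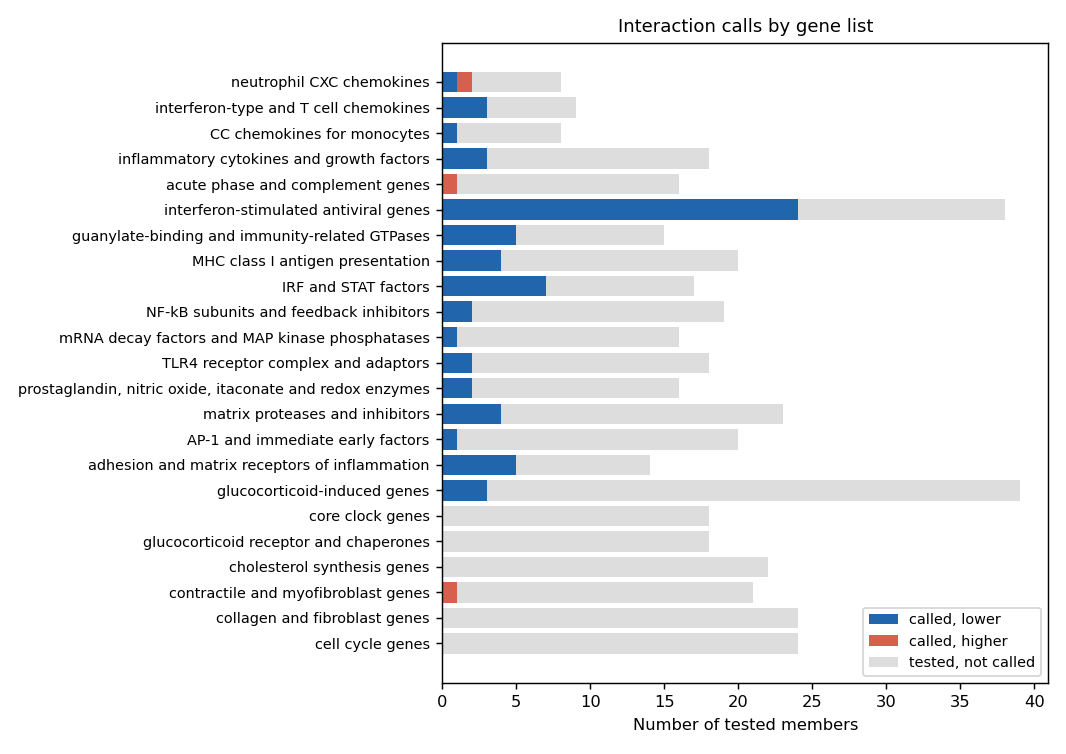
Number of tested members that were called lower, called higher or not called in the interaction, for the 23 gene lists that are not markers of another cell type. Interferon-stimulated antiviral genes have 24 of 38 members lower, and 5 of the lists shown, from clock to cell cycle genes, have no called member. Over all genes tested 1.56% were called.

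Of 9 tested chemokines for T cells, which interferon also induces, 3 were lower. Cxcl10, which attracts activated T cells, was at 1.23, 0.917 and 1.12 CPM with vehicle, 1.21, 0.537 and 1.08 with Dex, 340.0, 312 and 331 with LPS, and 53.4, 43.3 and 50.2 with Dex and LPS. LPS raised it 301-fold without Dex and 52.1-fold with Dex, and the interaction was -2.54 ± 0.36 (adjusted p = 0.000306). Cxcl9 and Cxcl16 had interactions of -3.79 ± 0.94 and -0.65 ± 0.15, and both calls were lost without both doubtful libraries (adjusted p = 0.0794 and 0.0824). Only Cxcl10 of this list was then called. Cxcl9 did not meet the rule on reads and CPM under which Ifit1 was lowest, so the size of its interaction is uncertain. It ran from -5.09 to -3.39 over the 25 other settings. The call on Cxcl9 was also lost without vehicle replicate 2, Dex replicate 1, 2 or 3, or Dex with LPS replicate 1. Among 8 neutrophil and homeostatic CXC chemokines, Cxcl1 was lower and Cxcl12 higher. Cxcl12, the ligand of CXCR4, was lowered by Dex in both settings, with effects of -0.63 without and -0.39 with LPS. Cxcl2 and Cxcl5 did not pass, with interactions of -1.72 ± 0.87 and -0.47 ± 0.21. Of 8 CC chemokines for monocytes, Ccl9 was lower (-0.84 ± 0.13), whereas Ccl2 had a Dex effect of -0.44 without and -0.64 with LPS and an interaction of -0.20 ± 0.12 that did not pass.

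Of 18 tested inflammatory cytokines and growth factors, Tslp, Lif and Csf1 were lower. Lif, leukemia inhibitory factor of the IL-6 family, was at 27.3, 29.9 and 27.2 CPM with vehicle, 18.2, 20.9 and 19.1 with Dex, 315, 329.5 and 329 with LPS, and 104, 107 and 105 with Dex and LPS. Its groups did not overlap in either setting, and the Dex effects were -0.53 ± 0.06 without LPS and -1.63 ± 0.06 with LPS (interaction adjusted p = 6.59e-08). Tslp, an epithelial and stromal cytokine, had an interaction of -1.61 ± 0.27, and Csf1, the macrophage growth factor, -0.46 ± 0.06. Il6 was not called, at -0.60 ± 0.26 (adjusted p = 0.549), with Dex effects of -1.56 and -2.16. Il1b, interleukin 1 beta, had 0 reads in all 3 vehicle libraries and at most 0.103 CPM with Dex, against 36.4, 35.9 and 36.9 CPM with LPS and 6.27, 4.93 and 6.34 with Dex and LPS, so its interaction has no usable error.

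Of 18 tested genes of the TLR4 receptor complex and its adaptors, Lbp and Myd88 were lower. Lbp, which carries LPS to CD14, was raised by Dex in both settings, 4.83-fold without and 1.77-fold with LPS, from levels of 0.522, 0.393 and 0.62 CPM with vehicle, 2.13, 2.97 and 2.31 with Dex, 3.2, 3.03 and 3.7 with LPS, and 5.6, 5.15 and 6.82 with Dex and LPS. All 3 Dex libraries were above all vehicle libraries, and the same held with LPS. The interaction of Lbp was -1.28 ± 0.31 (adjusted p = 0.0156). Of 19 NF-kB subunits and feedback inhibitors, Nfkbia and Nfkb1 were lower. Nfkbia encodes IkBa, the inhibitor that holds NF-kB in the cytoplasm and a known GR target. It was at 19.1, 17.9 and 18.6 CPM with vehicle, 28.9, 29.2 and 30.1 with Dex, 195, 194 and 195 with LPS, and 203, 181 and 151 with Dex and LPS. Dex raised it without LPS (0.66 ± 0.10, adjusted p = 3.94e-05), while with LPS the groups overlapped and the Dex effect was -0.13 ± 0.09 (adjusted p = 0.33). Nfkb1, the p105 and p50 subunit, had an interaction of -0.56 ± 0.06, which did not pass with an offset for length and GC content (-0.43, adjusted p = 0.0758). Tnfaip3, the inhibitor A20, did not pass at -0.13 ± 0.11.

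Matrix proteases included 4 lower members of 23 tested: Mmp9, Mmp12, Mmp3 and Plau. Mmp9, gelatinase B, was at 6.17, 7.29 and 6.74 CPM with vehicle, 5.91, 5.86 and 5.95 with Dex, 45, 43.2 and 44.6 with LPS, and 11.6, 11.1 and 11.3 with Dex and LPS. The Dex with LPS libraries lay close together, 3.92-fold below the LPS libraries. Its interaction, -1.77 ± 0.13, had the smallest adjusted p of all genes tested, 5.24e-08, together with Stat2 and Trim25. Mmp3, stromelysin 1, was lowered by Dex in both settings, with effects of -0.65 without and -1.41 with LPS. Plau, the urokinase activator of plasmin, had effects of -0.18 and -0.44. Mmp12, the macrophage elastase, lost its call without both doubtful libraries (adjusted p = 0.234), and Mmp10 did not pass at -1.10 ± 0.30. Among 14 adhesion and matrix receptors, Cd274, Sele, Lgals9, Pdpn and Itga5 were lower. Cd274, the checkpoint ligand PD-L1, had an interaction of -2.02 ± 0.43, and its adjusted p was 0.0667 without both libraries. Itga5, the fibronectin receptor subunit, was raised by Dex in both settings, 0.77 without and 0.47 with LPS. Itga5 and Sele also lost their calls without both libraries (adjusted p = 0.0621 and 0.151), which left 3 of the 14. The calls on Plau and Pdpn, the glycoprotein podoplanin, held in 15 and 11 of the 25 other settings.

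Enzymes of prostaglandin, nitric oxide and redox metabolism had 2 of 16 members lower. Ptges, the terminal prostaglandin E synthase, had an interaction of -0.58 ± 0.12 and Hmox1, heme oxygenase 1, of -0.45 ± 0.10. Ptgs2, cyclooxygenase 2, was lowered by Dex in both settings, with effects of -1.26 and -1.66, and its interaction did not pass (-0.40 ± 0.18, adjusted p = 0.425). Of 20 MHC class I antigen presentation genes, Psmb8, Tap1, H2-Q4 and H2-T22 were lower. Tap1, a peptide transporter, had an interaction of -0.92 ± 0.16 and Psmb8, an immunoproteasome subunit, of -1.11 ± 0.27. Psmb8 lost its call without both doubtful libraries (adjusted p = 0.053), which left 3 of the 20. H2-Q4 and H2-T22 belong to a family of near-identical genes, so their counts are uncertain. Zfp36, tristetraprolin, which destabilises cytokine mRNA, was 1 of 16 mRNA decay factors and MAP kinase phosphatases called. Such a count lies near the 1.56% called over all genes tested and does not set the list apart. Dex raised Zfp36 in both settings, 0.74 without and 0.28 with LPS. Dusp1, the phosphatase MKP-1, was not called (0.16 ± 0.09). Of 20 AP-1 and immediate early factors, Ier3 alone was lower (-0.53 ± 0.13), again near the share over all genes. The call on Ier3 held in 15 of the 25 other settings and was lost without any 1 of 9 libraries.

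Of 39 tested genes known to be induced by glucocorticoids, 3 were lower and none higher, and the median Dex effect was 1.47 without and 1.29 with LPS. Fam107a, an actin-associated stress-response protein, was at 0.237, 0.349 and 0.0827 CPM with vehicle, 12, 11 and 11.1 with Dex, 1.37, 1.19 and 1.3 with LPS, and 9.16, 8.82 and 9.27 with Dex and LPS. The Dex libraries exceeded vehicle 50.9-fold, and the Dex with LPS libraries exceeded LPS 7.04-fold. Vehicle replicate 3 lay below 3 reads (0.127 CPM), so the size of the fold without LPS is uncertain. LPS alone also raised Fam107a, and the interaction was -2.52 ± 0.30 (adjusted p = 9.98e-06). It ran from -2.94 to -2.19 over the 25 other settings. Errfi1, a feedback inhibitor of EGFR signalling, was raised by Dex without LPS (0.91 ± 0.05). With LPS it had a Dex effect of 0.06 ± 0.05 (adjusted p = 0.435), on levels of 98.8, 100.2 and 99.6 CPM with vehicle, 187, 185 and 191 with Dex, 205, 221 and 204 with LPS, and 206, 222 and 229 with Dex and LPS. The LPS and Dex with LPS libraries of Errfi1 overlapped. Interactions that did not pass were -0.20 ± 0.08 for Fkbp5, the receptor's co-chaperone, -0.24 ± 0.09 for Tsc22d3 (GILZ), -0.20 ± 0.13 for the clock gene Per1 and 0.03 ± 0.07 for the kinase Sgk1. Their Dex effects without and with LPS were 2.89 and 2.69, 2.49 and 2.26, 2.06 and 1.87, and 1.48 and 1.51. Other genes raised in both settings and less with LPS, named after their values were seen, were Tgfa, a ligand of EGFR (1.95 and 1.18), Epas1, the hypoxia factor HIF-2 alpha (1.34 and 0.70), and Gclc, of glutathione synthesis (1.29 and 0.88).

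The 20 reversed genes (0.131% of those tested) had a called interaction and called Dex effects of opposite sign. Of these, 17 were raised by Dex without LPS and lowered with it. Trim30d, an interferon-induced TRIM protein, had the largest interaction among them. It was at 2.66, 2.75 and 2.52 CPM with vehicle, 6.07, 5.91 and 7.02 with Dex, 15.3, 12.8 and 14.8 with LPS, and 5.96, 6.94 and 8.38 with Dex and LPS. Dex libraries were above vehicle and Dex with LPS libraries were below LPS with no overlap, while the Dex group overlapped the Dex with LPS group. Its Dex effects were 1.23 ± 0.20 and -0.98 ± 0.16 (interaction -2.21 ± 0.26, adjusted p = 2.22e-05). Trim30d lies beside related Trim genes, so its counts may be shared with copies.

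The other reversed genes, which fall outside the rule for named genes unless given in the plot of both genotypes, are listed here because all 20 are members. Vegfc, the growth factor of lymphatic vessels, was at 12.6, 13.7 and 11.7 CPM with vehicle, 21.2, 22.7 and 22.5 with Dex, 44.1, 42.5 and 41.9 with LPS, and 38.1, 32 and 34.2 with Dex and LPS. The 4 groups did not overlap: vehicle was lowest, then Dex, then Dex with LPS, then LPS. Its Dex effects were 0.80 ± 0.07 and -0.30 ± 0.07. Slco3a1, an organic anion transporter, had 0.43 and -0.38, Ifi35 0.50 and -0.32, Ifi207 0.90 and -0.59, and Arhgef3, a RhoA exchange factor, 0.46 and -0.37. Stx11, a syntaxin of immune secretion, had 0.28 and -0.56, Egln3, an oxygen-sensing prolyl hydroxylase, 0.26 and -0.44, and Gfpt2, of the hexosamine pathway, 0.29 and -0.38. Gas1, Ndrg1, Trim26, N4bp1, H2-T22 and the adaptor Myd88 had Dex effects of 0.20 to 0.35 without LPS and -0.30 to -0.19 with LPS. The LPS effect without Dex shares libraries with the interaction that chose these genes, so it is given with no reading: LPS changed 26.4% of all genes (14% higher, 12.4% lower), and it raised 16 of the 17 and lowered Gas1, a growth arrest protein (-0.24). The interaction of N4bp1 was lost without both doubtful libraries (adjusted p = 0.0746).

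The 3 genes reversed the other way were Lgr4, Sytl2 and Tril. Lgr4, a receptor for R-spondins that strengthens Wnt signals, was at 93.2, 89.3 and 92.1 CPM with vehicle, 65.6, 69.8 and 65.4 with Dex, 48.7, 51.8 and 52.2 with LPS, and 53.1, 64.6 and 70.3 with Dex and LPS. Vehicle was highest, Dex lay below it without overlap, and the Dex with LPS libraries, spread from 53.1 to 70.3 CPM, lay above the LPS libraries. Its Dex effects were -0.45 ± 0.08 and 0.31 ± 0.08 (interaction adjusted p = 0.000306). Tril, an accessory protein of TLR4 signalling, had -0.70 ± 0.19 and 0.69 ± 0.20 at levels of 1.71, 1.88 and 2.4 CPM with vehicle, 1.09, 1.2 and 1.33 with Dex, 0.777, 0.811 and 0.924 with LPS, and 1.69, 1.21 and 1.31 with Dex and LPS. The groups did not overlap in either setting, but the call on Tril was lost without both doubtful libraries (adjusted p = 0.118). Sytl2, an effector of RAB27, had -0.36 and 0.27. In the authors' deposited DESeq comparisons the Dex effects of all the 20 had the same signs. There Stx11, Egln3 and Ndrg1 missed 0.05 without LPS (DESeq adjusted p = 0.066, 0.0931 and 0.053), as did Tril with LPS (DESeq adjusted p = 0.0609). The number of reversed genes was 19 without both libraries, 14 of them among the 20, and 13 without vehicle replicate 3 or without Dex replicate 1.

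**Figure D4:**
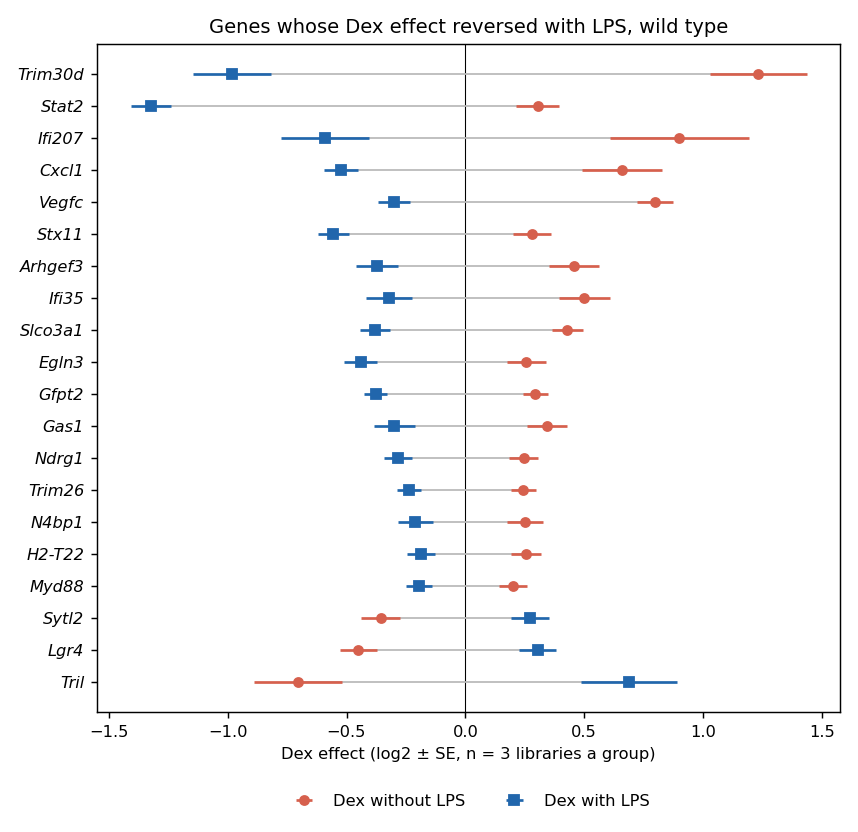
Log2 Dex effect with its SE for the 20 reversed genes, circles without LPS and squares with LPS, 3 libraries a group. Squares lie left of 0 for 17 genes and right of 0 for Tril, Lgr4 and Sytl2.

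Of the 48 higher genes, 4 were on the lists, each on a different one: Cxcl12, Serpina3g, Tgfb3 and Csf1r. Tmem119, a membrane protein of osteoblasts and microglia, was at 57, 59.3 and 61 CPM with vehicle, 89, 83.7 and 81.6 with Dex, 32.5, 29.1 and 29 with LPS, and 124, 111 and 89.8 with Dex and LPS. Dex raised it 1.43-fold without LPS and 3.59-fold with LPS, and the Dex with LPS libraries were above all others. The interaction was 1.32 ± 0.15 (adjusted p = 2.22e-05). Slc15a3, a lysosomal peptide transporter, had the highest interaction among genes with enough reads, 1.57 ± 0.31 (adjusted p = 0.00313). Its levels were 3.13, 2.4 and 3.18 CPM with vehicle, 0.683, 0.454 and 0.359 with Dex, 8.91, 7.68 and 9.89 with LPS, and 6.14, 5.11 and 4.36 with Dex and LPS. Dex lowered it 5.83-fold without LPS and 1.7-fold with LPS, with no overlap in either setting. Tgfb3, a transforming growth factor, was lowered by LPS (-1.20), and Dex raised it only with LPS (0.29 ± 0.05, against -0.04 ± 0.05). Serpina3g, a protease inhibitor, was raised in both settings, 0.38 and 0.73, and lost its call without both libraries (adjusted p = 0.327).

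Tlr13, a receptor for bacterial ribosomal RNA, was at 2.18, 1.96 and 1.82 CPM with vehicle, 2.65, 2.15 and 2.77 with Dex, 0.228, 0.299 and 0.489 with LPS, and 0.845, 1.21 and 1.72 with Dex and LPS. The LPS libraries were lowest and the Dex with LPS libraries lay between them and the rest. Its interaction was 1.44 ± 0.36, Myo1f, a leukocyte myosin, had 1.44 ± 0.30, Nrros 1.28 ± 0.31 and Csf1r, the receptor for CSF1, 0.57 ± 0.12. Of 13 tested leukocyte markers, Csf1r alone was called, and 3 of the 18 markers had no read in any wild-type library. The summed level of the 13 tested markers was 99.9 to 102.3 CPM with vehicle, 79.7 to 88.9 with Dex, 87.9 to 88.9 with LPS and 86.3 to 91.9 with Dex and LPS, and its part in these results was not tested. In bulk RNA, fewer cells of a type and less RNA per cell cannot be told apart. Calls on Tlr13, Myo1f and Nrros were lost without both doubtful libraries (adjusted p = 0.0624, 0.612 and 0.134). Palmd, a palmdelphin, Zcchc12, Sgip1 and Adra1d, an adrenergic receptor, had interactions of 1.07, 1.10, 1.31 and 0.96, and those on Palmd and Zcchc12 were also lost (adjusted p = 0.0684 and 0.151).

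Lists without a called member were core clock genes (18 tested), the receptor and its chaperones (18), cholesterol synthesis genes (22), collagen and fibroblast genes (24) and cell cycle genes (24), with medians of 0.01, -0.06, 0.05, -0.06 and 0.02. Of 16 acute phase and 21 contractile genes 1 each was called, Serpina3g and Tgfb3. None of the tested markers of endothelium (7), epithelium (4), skeletal muscle (3), cartilage and bone (10) or nerve and glia (7) was called, with medians of -0.17, 0.14, 0.15, -1.23 and -0.27. The median Dex effect on cholesterol synthesis genes was 0.37 without and 0.43 with LPS, and Dex raised 16 of the 22 without LPS. Over all genes tested 1.56% were called, so no call or 1 call in lists of this size lies near that share. Such counts therefore do not set these lists apart, nor the lists above in which 1 member was called. A test that misses the threshold does not show that the response was equal.

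Some called genes lay near each other. Within gaps of at most 200000 bases, 60 of the 238 genes formed 26 groups, some with tested genes between them that were not called; no share for other genes was computed. On chromosome 19, from 34550694 to 34650009, 5 of 6 tested genes were lower: Ifit2, Ifit3, Ifit1bl1, Ifit3b and Ifit1. On chromosome 7, from 104244457 to 104507849, Trim34a, Trim12a, Trim30a and Trim30d were lower among 8 tested. Irgm1, Gm5431 and Ifi47 on chromosome 11 were 3 of 9 tested genes in their stretch, and Gemin5, Igtp and Irgm2 were 3 of 5 in another on that chromosome. Parp14, Dtx3l and Parp9 were the 3 tested genes of a stretch on chromosome 16. In all but 3 of the 26 groups every called member was lower. The Ifit and Trim neighbours belong to families of similar sequence, and reads that map to several places were not counted.

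The LPS response of the GR Zn / Zn cells, which shares no library with the wild-type interaction, was used to describe the called genes further. LPS changed 36.7% of all genes there, 19% higher and 17.7% lower. Of the 190 lower genes, 177 (93.2%) rose with LPS in those cells, with a median of 1.68. Of the 48 higher genes, 29 (60.4%) fell and 11 (22.9%) rose, with a median of -0.61. Without the 3 mutant libraries that stand apart, 176 of the 190 rose and 28 of the 48 fell. LPS effects in the wild type share libraries with the interaction that chose the members. Those given here for members are therefore a description only.

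Libraries also stood apart in the GR Zn / Zn cells. Vehicle replicate 1 and LPS replicate 2 held 53.1 and 43.9 M counted reads, and the deviation of Dex with LPS replicate 2 had a rank correlation of -0.61 with transcript length. In these cells the same interaction was called for 0 genes (0%), with a smallest adjusted p of 0.257 in edgeR, 809 genes at an unadjusted p below 0.05, and 3 genes called by DESeq2 and 0 by limma voom. Dex with LPS changed 1 gene there (0.00657%, higher; 28 in DESeq2 and 188 in limma voom), and the medians of that effect over the 190 and the 48 genes were 0.10 and 0.02. The difference between the 2 interactions was called for 148 genes (0.972%), 127 lower in the wild type (0.834%) and 21 higher (0.138%). It was called for 227 genes without the mutant's Dex with LPS replicate 2 and for 147 without all 3 of these libraries, while the mutant interaction was called for 0 genes in both cases, with 1134 and 423 genes at an unadjusted p below 0.05. This difference contains the wild-type interaction that chose the members, so its values for them are a description. Ifit1 in the mutant was at 3.21, 1.47 and 1.39 CPM with vehicle, 2.89, 1.73 and 2.02 with Dex, 351, 284 and 334 with LPS, and 552, 366 and 459 with Dex and LPS. There the Dex with LPS libraries lay above the LPS libraries. The mutant interaction of Ifit1 was 0.57 ± 0.34, and it differed from that of the wild type by -3.94 ± 0.60 (adjusted p = 0.000765). Cxcl1 in the mutant had Dex effects of -0.09 ± 0.11 without and 0.05 ± 0.07 with LPS, and the interactions differed by -1.32 ± 0.22 (adjusted p = 0.00162). For Mmp13 the difference was -3.33 ± 1.33 and did not pass (adjusted p = 0.525). The effect of genotype and that of the separate cultures cannot be told apart.

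**Figure D5:**
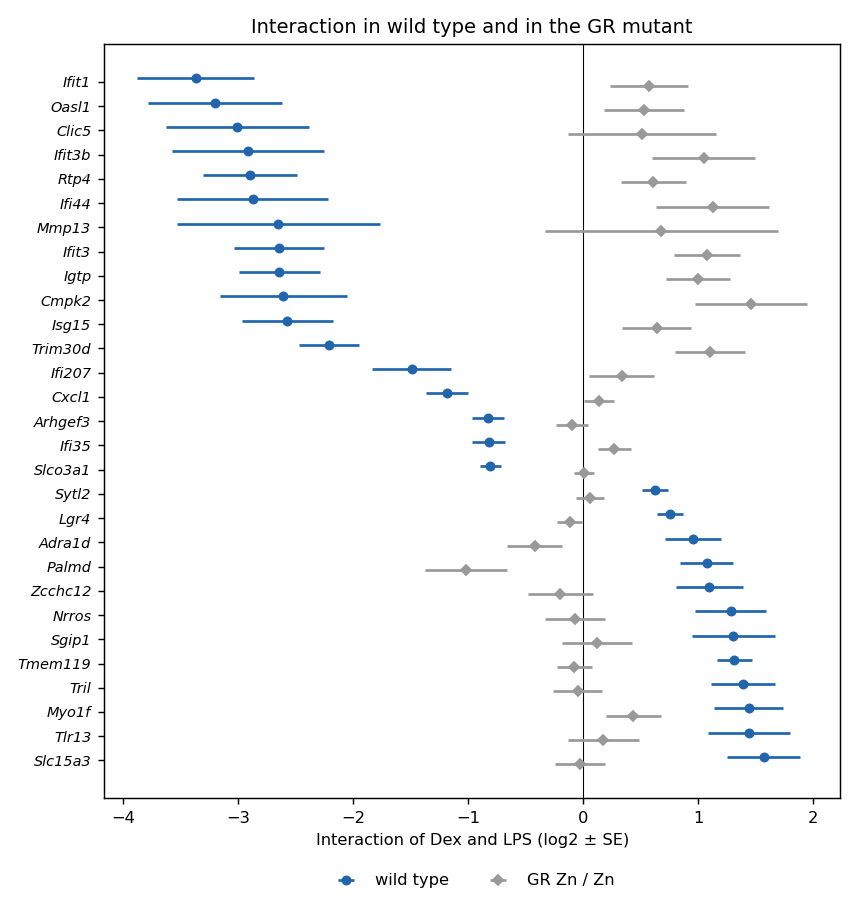
Interaction of Dex and LPS with its SE in wild type (circles) and GR Zn / Zn (diamonds) for the markers, the genes with the 10 lowest and 10 highest interactions, and the reversed genes with the largest Dex effects. Wild-type values run from -3.37 for Ifit1 to 1.57 for Slc15a3; no mutant value passed the test.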

How the data were processed

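RNA-seq of fibroblasts from mouse embryos covered 24 libraries, 3 for each of 8 combinations of genotype and treatment. The authors deposited raw read counts per gene from STAR 2.4.2 or 2.4.2a on mm10, per the submitters' processing notes, and per the file headers in 3 columns by strand; the column for the strand of the library was used, and 96 other columns of per-sample values were not used. Reads that map to several places were not counted. The authors also deposited tables with log2 fold changes and p-values of their own comparisons, from which a few values are quoted as theirs. The annotation release was matched here to GENCODE vM21, which names 45143 of the 45706 entries.

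Genes were kept by edgeR's filter on low counts (15221 of 27088 with a read), scaled by TMM and fitted over all 24 libraries with 1 term per group and a robust quasi-likelihood fit in edgeR 4.0.16 (R 4.3.3), prior count 2. The interaction, the 2 Dex effects, the LPS effects and the difference between genotypes are contrasts of that fit, each adjusted by Benjamini-Hochberg over all genes. Depth was 18.9 to 58.0 M counted reads; 3 reads correspond to 0.0518 to 0.159 CPM. Errors and tests cover the spread between libraries only.

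The named genes are the 3 markers, the 10 lowest and 10 highest called interactions among protein-coding genes with at least 10 reads in each wild-type group and 1 CPM in one of them, and up to 6 reversed genes in each direction. Up to 5 called members of each of 30 gene lists, and members not called for comparison, complete them. The members and lists were chosen with earlier results of these data known. Alternatives were 2 other scalings, 2 filters, unstranded counts, the wild type alone, a replicate block, an offset for length and GC content, left-out libraries, another prior count, DESeq2 1.42.0 and limma 3.58.1 (voom with sample weights). Leaving out 3 libraries of the mutant was added after seeing the data. Sequences are from RefSeq (GRCm38.p6); 63 of the 82 named genes matched a promoter.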

Additional observations from a re-analysis of the deposited data

Results flagged for a closer look

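For the 20 named genes given here the interaction of Dex and LPS differed between wild type and GR Zn / Zn. The call is by the test of that difference itself (edgeR, adjusted p below 0.05). They are not a full count. The difference was called for 112 of the 190 lower and 16 of the 48 higher genes, against 0.972% of all genes. The genes were chosen for their wild-type interaction, which is a term of the tested difference. The choice thus favours such a difference, and the values are a description. Values are the wild-type interaction minus the mutant one, in log2. Among antiviral genes the difference was -4.07 for Cmpk2, -4.00 for Ifi44, -3.96 for Ifit3b, -3.94 for Ifit1, -3.73 for Oasl1, -3.72 for Ifit3, -3.51 for Rtp4 and -3.21 for Isg15. It was -3.64 for the GTPase Igtp, -3.52 for Clic5, a chloride channel-like protein, and -1.32 for Cxcl1.

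Cxcl1 is also a reversed gene. The others given here were Trim30d at -3.32, Ifi207 at -1.83, Ifi35 at -1.09, Slco3a1 at -0.82, Lgr4 at 0.87 and Tril at 1.44. The difference is not reported here for the remaining reversed genes, so their absence does not mean that it was not called. The higher genes Slc15a3, Tmem119 and Palmd had differences of 1.60, 1.39 and 2.09. The 2 genotypes were separate cultures, so genotype and culture cannot be told apart.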

How the results depend on the processing

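The sign of all 238 called interactions was the same in each of the 25 alternatives. Counts of called genes moved by over 1.5 times under an offset for transcript length and GC content, which gave 449 interactions (127 higher, 322 lower), 40 reversed genes and 238 differences between genotypes. The same offset with a replicate block gave 439 (119 higher, 320 lower), 36 and 228. Limma voom with sample weights gave 889 (330 higher, 559 lower), 78 and 469, and 4423 Dex effects without and 4890 with LPS, against 2003 and 3198 in edgeR. With both Dex with LPS libraries that stand apart left out, 1996 genes passed for Dex with LPS. The share of lower calls was 79.8% in the main setting, 70.7% with upper-quartile scaling, 71.7% with the offset and 62.9% with voom. The cause of these shifts was not tested. The other settings gave 175 interactions without a filter, 184 with the wild type alone, 215 with upper-quartile scaling, 230 with unstranded counts, 233 with RLE size factors and 241 with a filter of 10 reads in 3 libraries.

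Leaving out 1 library at a time gave 156 to 316 interactions (27 to 63 higher, 127 to 253 lower), 13 to 24 reversed genes and 112 to 227 differences between genotypes, the most without the mutant's Dex with LPS replicate 2 (chosen after seeing the data). The higher calls were 29 without Dex replicate 2, 27 without Dex replicate 3, and 29 without LPS replicate 1 or replicate 2. A replicate block gave 225 interactions (41 higher, 184 lower), 21 reversed genes and 138 differences. The labels do not say that a number marks a shared embryo or day, and correlations of deviations between wild-type libraries with the same number ran from -0.16 to 0.12, with 1 of 12 libraries correlating best with its own number, so the block is no pairing by design. Of 2050 values of the 82 named genes, 204 lost a call of the main setting in the same direction and 0 changed sign. These 204 leave out Mmp13, which was not called in the main setting either. Of 1500 list counts, 105 moved by over 1.5 times. Of the named genes 46 passed in all 25 settings. Zcchc12 passed in 8, Sgip1, Mmp12 and Pdpn in 11, Nrros in 14, Adra1d, Cxcl16, Plau and Ier3 in 15, Ifit3b, Psmb8 and Sele in 16, Serpina3g in 17, Cxcl9 and N4bp1 in 18, and Ifi44 and Tlr13 in 19. A call was lost without 1 library for Gbp3 and H2-Q4 (Dex replicate 2), Irf7 (Dex replicate 3), Csf1r (LPS replicate 1), Lbp (vehicle or Dex replicate 2), Palmd (LPS replicate 1 or 2), Cmpk2 (Dex replicate 1 or 2), Cd274 (Dex replicate 2) and Ifi207 (vehicle replicate 1 or 3, Dex replicate 1). Genes near 0 reads without LPS, such as Il1b, Mx1 and Rsad2, are limited by depth.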

Other observations

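Cyp2c50, a cytochrome P450 of the liver, had a called interaction (edgeR, adjusted p = 0.0388) at 0.427, 0.306 and 0.951 CPM with vehicle, 0.121, 0.0826 and 0.154 with Dex, 0, 0 and 0 with LPS, and 0, 0.403 and 1.49 with Dex and LPS. With 0 reads in all LPS libraries, its fold depends on the prior count and is not given. Cyp2c50 is not among the listed adult liver markers, none of which was called. Their summed level in replicates 1 to 3 was 36.9, 37.8 and 1.09 CPM with LPS, and 1.82, 58.5 and 241.7 with Dex and LPS. The part of this liver signal in the call on Cyp2c50 was not tested. Clic5, a chloride channel-like protein on none of the lists, had an interaction of -3.01 ± 0.62 (adjusted p = 0.00261) at 0.285, 0.218 and 0.165 CPM with vehicle, 0.563, 0.248 and 0.666 with Dex, 1.46, 1.15 and 1.52 with LPS, and 0.222, 0.134 and 0.354 with Dex and LPS. Its Dex with LPS libraries lay below its LPS libraries without overlap.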
